A study of Mus musculus with 2 samples.

Results

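The genes described here are the protein-coding SR, hnRNP, SF3A, SF3B, U2AF and ZRSR genes of the mouse, chosen by symbol: Srsf followed by a number, any symbol that starts with Hnrnp, Sf3a or Sf3b, and U2af1, U2af2, Zrsr1 and Zrsr2. The rule found 44 genes among 21474 protein-coding genes in the tables. They comprise 11 SR genes, 20 hnRNP genes, 9 SF3A and SF3B genes and 4 U2AF and ZRSR genes. Their levels were read from total RNA of megakaryocyte-erythroid progenitors (MEP), sorted bone marrow cells that give rise to red cells and platelets, from male C57BL/6J mice of 5 to 6 weeks. There is 1 group of 2 libraries, biological replicates 1 and 2, and no treatment, mutation or other cell type, so the comparisons are between genes, between transcripts of a gene and between the libraries. The libraries have a biosample each and share 1 donor entry, so separate mice are not stated and the spread between the libraries may be technical. With 2 libraries an exact two-sided sign test cannot go below p = 0.5, and no test was made.

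SR proteins bind short enhancer sequences in exons and help the spliceosome to use the neighbouring splice sites, while many hnRNP proteins coat the nascent RNA and often work against that use. At the end of an intron, U2AF2 binds the run of pyrimidines and U2AF1 the AG that follows it; the U2 snRNP, with its SF3A and SF3B subunits, then settles on the branch site. ZRSR2 does the work of U2AF1 on the rare minor-class introns. SR genes are known to hold exons that bring a premature stop codon, often called poison exons, and transcripts with such a stop can be removed by nonsense-mediated decay. In people, SF3B1, SRSF2, U2AF1 and ZRSR2 are recurrently mutated in myelodysplastic syndromes, which are disorders of blood-forming cells.

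Replicate 1 held 39919884 expected counts (estimated numbers of reads, not normalized) and replicate 2 held 48043010. Nuclear protein-coding genes took 87.0% and 84.9% of these counts, and 25.6% and 20.6% of the TPM (a share of transcripts, corrected for length, over all rows of the table). The remaining TPM lay on other rows, which are not described here. Erythroid markers reached a TPM of 1 in both libraries in 11 of 11 cases and summed to 1484 TPM in replicate 1 and 1471 TPM in replicate 2. Of 8 megakaryocyte markers 4 did so, with sums of 57.0 and 22.7 TPM, and of 7 stem and multipotent markers 4, with sums of 78.6 and 20.3 TPM and Ly6a at 0 in both. Granulocyte and monocyte markers reached it in 4 of 10 cases, with 65.8 and 121 TPM, and lymphoid and NK markers in 2 of 7 cases, with 9.20 and 22.3 TPM and Cd3e at 0 in both. Of the macrophage and dendritic markers 1 of 6 reached it, with 5.04 and 7.65 TPM and Adgre1, C1qa and C1qb at 0 in both, and of the mast cell and basophil markers 1 of 5, with 9.19 and 2.14 TPM and Mcpt8 at 0 in both. The 5 surface genes of the MEP gate summed to 88.8 and 53.7 TPM. That sum mixes genes meant to be present with genes meant to be low, so it does not measure the fit to the gate. Of these 5 genes Cd34, which should be low in this gate, had 18.3 TPM in replicate 1 and 1.44 TPM in replicate 2.

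Nearly every gene of the 4 families was expressed. With detection set at a TPM of 1 in each library, 43 of the 44 genes were detected, where 39.4% of all protein-coding genes were. The exception was Srsf12. The median over the 44 genes was 65.9 ± 15.4 TPM (SD of the 2 library medians, 77.9 in replicate 1 and 56.1 in replicate 2). Across the 8465 protein-coding genes detected in both libraries it was 8.14 TPM, and 39 of the 44 genes were above that level. The genes below it were Srsf12, Sf3b4, Sf3a2, Sf3b5 and Zrsr1. Together the 44 genes held 2.10% of the nuclear protein-coding TPM in replicate 1 and 2.07% in replicate 2.

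**Figure D1:**
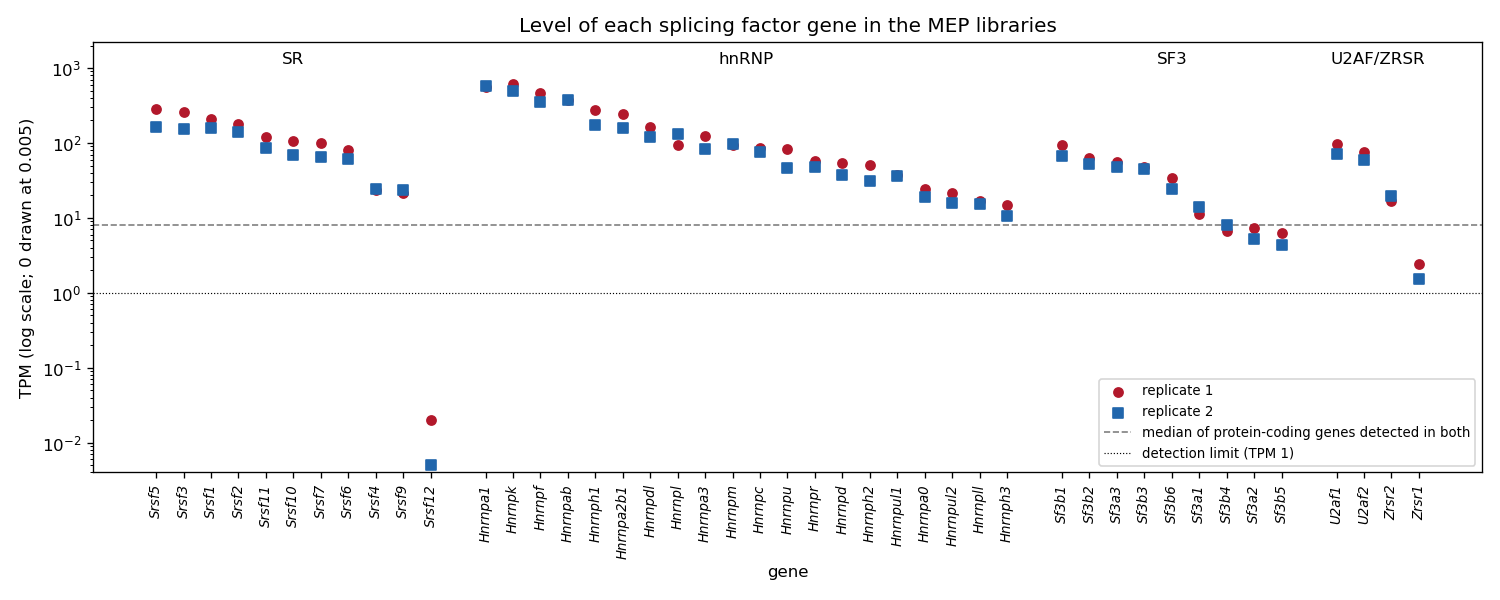
TPM of each of the 44 genes (log scale, 0 drawn at 0.005) in replicate 1 (circles) and replicate 2 (squares), by family and ordered by mean; the dashed line is the median of 8.14 TPM of detected protein-coding genes and the dotted line a TPM of 1. Hnrnpa1 and Hnrnpk stand highest, and Srsf12 is the only gene under the dotted line.

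Among the SR genes the median was 88.5 ± 27.0 TPM (SD of the 2 library medians). Srsf5 had 283 TPM in replicate 1 and 163 TPM in replicate 2. Srsf3, the smallest SR protein and a link between splicing and mRNA export, had 263 and 153 TPM. Srsf1, the founding member of the family, had 211 and 161 TPM. These 3 genes led the family in both libraries, but their order differed: Srsf3 was above Srsf1 in replicate 1 (log2 ratio 0.32) and below it in replicate 2 (-0.07). Srsf2, the SR protein mutated in myelodysplastic syndromes, followed with 177 and 139 TPM. It stood below Srsf1 by a log2 ratio of -0.23 ± 0.03 (mean ± SD, n = 2), a gap wider than its spread between the libraries, and by -0.74 from coding transcripts only.

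A middle group held Srsf11 at 121 and 86.5 TPM and Srsf10, whose protein represses splicing when it loses its phosphate groups, at 108 and 69.4 TPM. Srsf7, the closest relative of Srsf3 in its RNA-binding domain, had 99.7 and 64.8 TPM, and Srsf6 had 80.8 and 61.6 TPM. Within each library Srsf3 exceeded Srsf7 by a similar margin, a log2 ratio of 1.32 ± 0.11 (n = 2). From the TPM of coding transcripts only, that ratio was 0.32. Srsf4 and Srsf9 were lower and the only SR genes without a higher value in replicate 1. Srsf4 had 23.9 and 24.5 TPM, and Srsf9 had 21.4 and 23.2 TPM.

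Srsf12 stood apart from its family. It had 6 expected counts in replicate 1 and 0 in replicate 2, a TPM of 0.02 and 0. Srsf3 was 10869-fold higher in replicate 1 (95% Poisson interval of the 6 counts, 4994 to 29616, counting error only). In replicate 2 it was at least 11365-fold higher, against a floor of 3 counts per library, or 0.0135 TPM.

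A large share of the TPM of the SR genes was assigned to transcripts that the annotation does not class as coding. These are retained-intron transcripts, nonsense-mediated decay transcripts, and processed transcripts without an open reading frame. For the 9 detected SR genes with 2 or more transcripts in the tables, the median share of TPM on such transcripts was 38.3% in replicate 1 and 39.7% in replicate 2. Over all 6790 protein-coding genes that passed the same filters it was 8.21% and 5.60%. All 9 SR genes have an annotated transcript of that kind; over the 5645 genes of the background that have one, the median was 14.5% and 11.7%. By expected counts the medians were lower, 18.2% and 14.2% for the 9 SR genes and 6.48% and 5.07% for those 5645 genes. A share of this size was not particular to SR genes. As the mean of both libraries their median was 40.8% of TPM. In the lists of other splicing genes below it was 55.3% over 5 minor spliceosome genes and 53.7% over 5 SR kinase genes. It was 43.9% in U2af1l4 and 39.4% over 11 U1 genes. The remaining lists were lower, from 3.68% in the Sm core to 31.5% in the other regulators of alternative splicing. Srsf7 is outside this account because the tables hold 1 transcript for it.

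Srsf3 shows the pattern with 3 kinds of transcript. The coding Srsf3-202 had 114 TPM in replicate 1 and 88.0 TPM in replicate 2. The retained-intron transcript Srsf3-205 had 90.8 and 34.9 TPM, and Srsf3-201, classed for nonsense-mediated decay, had 44.9 and 20.7 TPM. Srsf3-205 held 34.5% and 22.8% of the TPM of the gene but 13.7% and 7.96% of its expected counts. Srsf3-201 holds an exon of 456 bases that Srsf3-202 skips, on the plus strand at chr17:29039454-29039909 (mm10), and reading into it meets a stop codon after 31 bases. Of the TPM of these 2 spliced forms, Srsf3-201 took 28.2% in replicate 1 and 19.0% in replicate 2, a mean of 23.6% ± 6.5 (SD, n = 2). By expected counts its part was 22.1% and 14.5%.

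Srsf6 offers a second case with less spread. Srsf6-201, classed for nonsense-mediated decay, had 16.5 TPM in replicate 1 and 12.0 TPM in replicate 2, and the coding Srsf6-203 had 59.6 and 46.6 TPM. The exon that sets them apart has 268 bases, on the plus strand at chr2:162932815-162933082. Srsf6-201 took 21.7% and 20.5% of the TPM of the pair, a mean of 21.1% ± 0.8 (SD, n = 2), and 10.8% and 10.1% of its counts. The start of both exons is shown from its first base to the stop codon, which is in capitals, because this stretch is what turns the reading frame off; both were read from the GENCODE M21 transcripts, on mm10.
Srsf3-201, chr17:29039454-29039487, plus strand: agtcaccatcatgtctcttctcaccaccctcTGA
Srsf6-201, chr2:162932815-162932966, plus strand: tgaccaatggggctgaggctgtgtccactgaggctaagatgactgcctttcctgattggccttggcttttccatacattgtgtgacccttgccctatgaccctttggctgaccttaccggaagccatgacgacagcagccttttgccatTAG
The length of Srsf6-201 is 1666 bases in the tables and in GENCODE M21. Srsf3-201 has 1919 bases in the tables and 2594 in M21, and Srsf3-205 has 910 and 2110. Their models therefore differ between the releases, in a way not analysed here.

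Other SR genes put their non-coding share on other classes. Srsf2-205, a processed transcript of 433 bases, led Srsf2 in both libraries with 92.3 TPM in replicate 1 and 70.4 TPM in replicate 2, where the coding Srsf2-201 of 1899 bases had 72.3 and 58.3 TPM. By expected counts the order was the opposite: Srsf2-205 held 12.2% and 11.5% of the counts of the gene and Srsf2-201 held 75.6% and 76.3%. Srsf1-203, a retained-intron transcript of 759 bases that lies wholly within exons of coding Srsf1 transcripts, had 77.4 and 69.5 TPM but 6.76% and 8.28% of the counts.

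Srsf11-207, a retained-intron transcript, led Srsf11 in replicate 1 with 46.9 TPM, against 25.3 TPM in replicate 2, where the coding Srsf11-202 led with 31.0 TPM. Srsf5-212, which keeps an intron in 2720 bases, had 48.8 and 14.9 TPM, or 29.1% and 15.8% of the counts of Srsf5. It was the SR gene whose non-coding share was larger by counts than by TPM, 44.5% and 38.7% against 36.1% and 31.3%. Srsf4 had little of any such class, with 9.51% and 7.08% of its TPM on it.

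The hnRNP genes held the highest levels of the 4 families. Hnrnpa1, a shuttling repressor of exon inclusion, had 567 TPM in replicate 1 and 573 TPM in replicate 2 and ranked 62 among all protein-coding genes by mean. Hnrnpk, which binds runs of C with its KH domains, had 618 and 493 TPM and ranked 64. Hnrnpf, which binds runs of G, had 460 and 350 TPM, and Hnrnpab, a relative of the AU-binding Hnrnpd, had 372 and 378 TPM. These 4 genes were above every SR gene in both libraries. All 20 hnRNP genes were detected, with a family median of 88.7 ± 7.5 TPM (SD of the 2 library medians) and a lowest mean of 12.8 TPM, that of Hnrnph3.

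Of the genes next in order, Hnrnph1 had 278 and 172 TPM, and Hnrnpa2b1, the partner of Hnrnpa1, had 247 and 158 TPM. Hnrnpa2b1 stood below Hnrnpa1 by a log2 ratio of -1.53 ± 0.47 (n = 2). Hnrnpdl had 164 and 119 TPM and Hnrnpa3 had 123 and 83.8 TPM. Hnrnpm had 95.1 and 98.2 TPM, and Hnrnpc, whose protein binds runs of U in nascent RNA, had 86.4 and 75.0 TPM. The scaffold-attachment protein gene Hnrnpu had 82.7 and 47.0 TPM. Hnrnpc stood above Hnrnpd, at 54.2 and 37.8 TPM, by a log2 ratio of 0.83 ± 0.22 (n = 2), and by 1.79 from coding transcripts only.

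Hnrnpl was the hnRNP gene with a clearly higher level in replicate 2. It had 93.5 TPM in replicate 1 and 133 TPM in replicate 2, while its paralog Hnrnpll, a splicing regulator known from lymphocytes, had 17.0 and 15.6 TPM. Hnrnpl exceeded Hnrnpll by a log2 ratio of 2.78 ± 0.46 (n = 2), and Hnrnpk exceeded Hnrnpl by 2.30 ± 0.59, or by 1.56 from coding transcripts only. Hnrnpl-204, a coding transcript model of 502 bases, had 12.4 TPM in replicate 1 and 64.0 TPM in replicate 2. It held 2.77% of the Hnrnpl counts in replicate 1 and 12.7% in replicate 2. The rest of the family lay between 10.5 and 57.9 TPM in single libraries: Hnrnpr had 57.9 and 47.7 TPM, Hnrnph2 had 50.3 and 31.3 TPM, and Hnrnpul1 had 37.3 and 35.7 TPM. Hnrnpa0 had 24.5 and 19.1 TPM, Hnrnpul2 had 21.8 and 16.0 TPM, and Hnrnph3 had 15.1 and 10.5 TPM.

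The hnRNP genes differ in the transcripts annotated for them. In 7 of the 18 genes with 2 or more transcripts, none of these was of a non-coding class. Hnrnpa1, Hnrnpf, Hnrnpab, Hnrnpa2b1 and Hnrnpc are among these genes. Over all protein-coding genes past the same filters, 5645 of 6790 had a transcript of a non-coding class. The other 11 hnRNP genes had a median of 39.4% of TPM on transcripts not classed as coding in replicate 1 and 39.5% in replicate 2. Over the 5645 background genes it was 14.5% and 11.7%. By expected counts it was 25.1% and 26.0% in the 11 genes and 6.48% and 5.07% in the background. Single genes varied widely, with Hnrnpa3 at 2.75% and 1.75% of TPM and Hnrnpk at 55.9% and 57.9%. Hnrnpk-209, a retained-intron transcript of 731 bases, led Hnrnpk with 290 and 251 TPM. It held 19.9% and 21.9% of the counts, and 85.4% of its bases lie in exons of coding Hnrnpk transcripts.

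In Hnrnpd, which binds AU-rich RNA, and its relative Hnrnpdl the leading transcript was one classed for nonsense-mediated decay. Hnrnpdl-205 had 57.9 TPM in replicate 1 and 40.3 TPM in replicate 2, above the coding Hnrnpdl-202 with 52.8 and 38.8 TPM. Hnrnpd-208 had 14.9 and 13.9 TPM, above the coding Hnrnpd-203 with 13.0 and 11.7 TPM. By counts both coding transcripts were ahead, Hnrnpdl-202 with 44.8% and 46.3% against 24.3% and 23.9%, and Hnrnpd-203 with 33.7% and 36.4% against 23.9% and 26.7%. In Hnrnph1 the processed transcripts together took 69.4% of TPM in replicate 1 and 47.8% in replicate 2, and the coding Hnrnph1-201 had 41.4 and 74.5 TPM.

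A coding alternative was measurable in Hnrnpab, through 1 exon that keeps the reading frame. Hnrnpab-203, with an exon of 141 bases on the minus strand at chr11:51601750-51601890 (mm10), had 197 TPM in replicate 1 and 230 TPM in replicate 2, against 167 and 140 TPM for Hnrnpab-201, which lacks it. It took 54.1% and 62.2% of the pair by TPM and 40.0% and 48.1% by counts, so which form led depended on the measure. The exon is printed in full because its inclusion separates the forms, with no part of it in capitals.
Hnrnpab-203, minus strand: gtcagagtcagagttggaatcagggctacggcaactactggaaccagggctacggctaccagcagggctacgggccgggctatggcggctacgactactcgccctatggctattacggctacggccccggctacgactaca

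The subunits of SF3A and SF3B, which act together in the U2 snRNP, did not share a level. Sf3b1, the large subunit that clamps the branch site and the one mutated in myelodysplastic syndromes, had 93.7 TPM in replicate 1 and 67.1 TPM in replicate 2. Sf3b2 had 62.7 and 53.2 TPM, Sf3a3 had 55.6 and 47.7 TPM, and Sf3b3 had 47.3 and 44.8 TPM. Sf3b6, whose protein touches the branch site adenosine, had 34.5 and 24.5 TPM. The other 4 subunits were lower. Sf3a1 had 11.4 and 14.1 TPM, so that Sf3b1 exceeded it by a log2 ratio of 2.65 ± 0.56 (n = 2). Sf3b4 had 6.60 and 7.95 TPM, Sf3a2 had 7.24 and 5.17 TPM, and Sf3b5 had 6.32 and 4.38 TPM.

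The transcript model enters the values of the low subunits. Sf3b5 is modelled as 1 exon of 3841 bases with 258 coding bases. Its 2089 and 2127 counts were close to the 2808 and 2933 of Sf3b6, whose model has 1115 bases. Sf3a1, whose leading model has 4920 bases, had more counts than Sf3b6, 4170 in replicate 1 and 7257 in replicate 2. Sf3a2 rested on Sf3a2-204, of 781 bases, with 6.42 and 3.12 TPM, and on Sf3a2-203, of 2213 bases, with 0.73 and 2.05 TPM. The effective length the authors gave Sf3a2 was accordingly 701 bases in replicate 1 and 1123 bases in replicate 2. Of the SF3 genes, Sf3b1 alone had over 25% of its TPM on transcripts not classed as coding in both libraries, with 26.8% and 27.8% of TPM, and 13.1% and 9.05% of counts.

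U2AF is a dimer of the U2af1 and U2af2 products. U2af1 had 98.3 TPM in replicate 1 and 72.3 TPM in replicate 2, and U2af2 had 74.9 and 59.1 TPM. U2af2 was below U2af1 in both, by a log2 ratio of -0.34 ± 0.07 (n = 2). Zrsr2, the minor-intron counterpart mutated in myelodysplastic syndromes, had 16.8 and 19.7 TPM, and U2af1 exceeded it by 2.21 ± 0.48. Zrsr2-208, a coding model of 460 bases, held 53.1% and 55.3% of this Zrsr2 level, with 8.92 and 10.9 TPM, and 13.4% and 21.8% of the counts, while Zrsr2-202, of 2735 bases, had 2.45 and 1.39 TPM and 38.6% and 29.5% of the counts. Zrsr1, the imprinted and intronless mouse copy, had 2.45 and 1.52 TPM, and U2af1 exceeded it by 5.45 ± 0.17. Zrsr1 lies within Commd1 on the opposite strand, and exons of the 2 genes overlap; Commd1 had 16.5 and 20.3 TPM.

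U2af1 is spliced in either of 2 ways at exon 3, with 67 bases each way. U2af1-201, which uses the version at chr17:31651646-31651712 on the minus strand, had 87.3 TPM in replicate 1 and 65.5 TPM in replicate 2. U2af1-202, which uses chr17:31652502-31652568, had 11.0 and 6.80 TPM, or 11.2% and 9.40% of the pair (mean 10.3% ± 1.3, SD, n = 2). The share by counts was the same to that precision, since both models have 907 bases in the tables. The exons are printed because they code for the same stretch of the protein in alternative forms; 44 of the 67 positions are identical, and capitals mark the 23 that differ.
U2af1-201 exon: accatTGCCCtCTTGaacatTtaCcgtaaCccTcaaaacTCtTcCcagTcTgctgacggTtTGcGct
U2af1-202 exon: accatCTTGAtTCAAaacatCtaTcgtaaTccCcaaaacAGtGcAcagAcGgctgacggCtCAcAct

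Across the families, 26 of the 35 genes that had 2 or more transcripts and a mean TPM over the limit of 1 had a transcript not classed as coding. Over all protein-coding genes past the same filters 5645 of 6790 had one, a larger share, so having one is not particular to the families. In 14 of the 35 genes such transcripts took over 25% of TPM in both libraries, against 21.7% of all protein-coding genes that passed the same filters. These 14 were 6 SR genes, 7 hnRNP genes and Sf3b1. In 4 of the 35 the leading transcript was not coding in both libraries, against 8.28% of the background, which with so few genes is no result about the families. The median share over the 35 genes was 22.3% of TPM and 5.30% of expected counts.

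**Figure D2:**
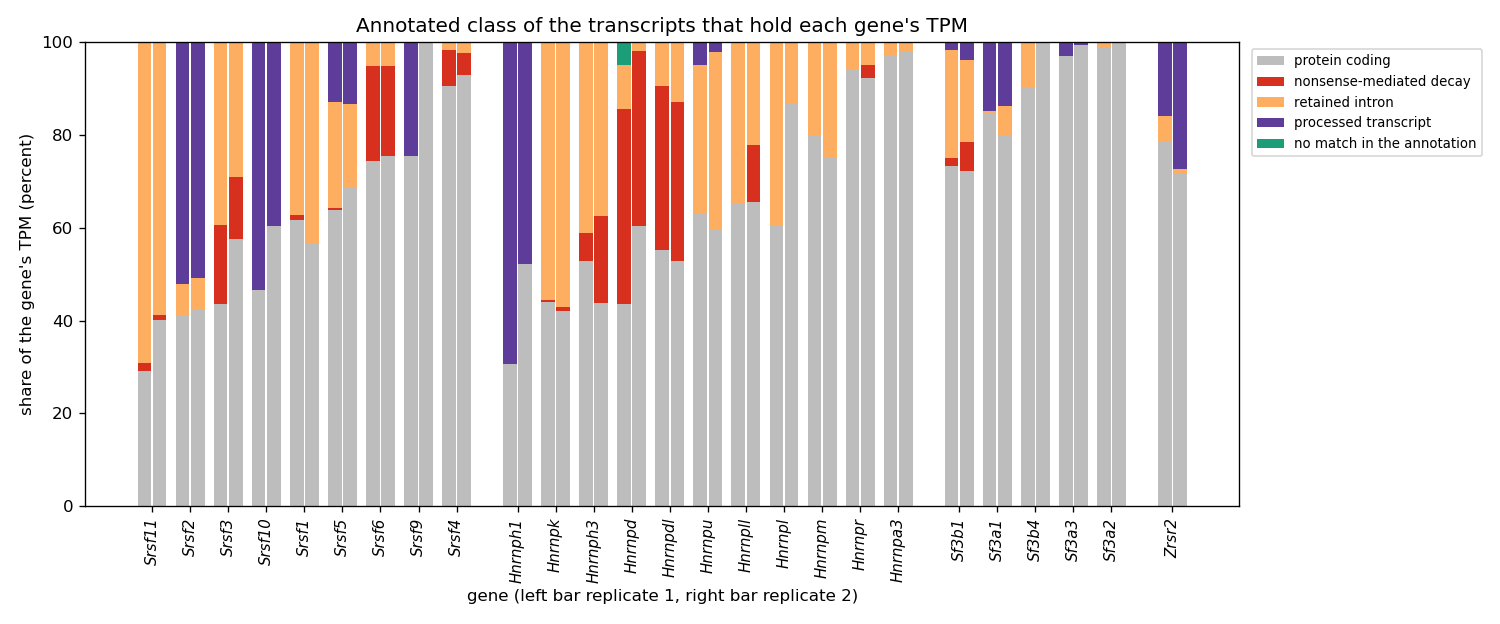
Share of the TPM of each gene by the annotated class of its transcripts, for the 26 genes with at least 1 transcript not classed as coding (left bar replicate 1, right bar replicate 2). SR and hnRNP genes carry most of the coloured area, in retained-intron, processed and nonsense-mediated decay classes that differ from gene to gene.

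The gap between TPM and counts was common to these genes, and the background had it too. As the mean of both libraries, the median non-coding share of the 26 genes was 30.5% of TPM and 12.4% of counts. Over the 5645 background genes with such a transcript it was 15.8% and 6.84%. In 20 of the 26 the non-coding share was smaller by counts than by TPM in both libraries. In Srsf5 and Hnrnpll it was larger in both, in Hnrnpl the libraries differed, and Srsf9, Sf3b4 and Sf3a2 had no such TPM in replicate 2. TPM divides by length, and some of the non-coding models given above are short. The part of length in this gap was not tested. The authors' annotation, GENCODE M4, and M21 differ as well: of 249 transcripts with a match, 223 have the same length in both, and these held 69.5% of the TPM of the 44 genes in replicate 1 and 68.2% in replicate 2.

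**Figure D3:**
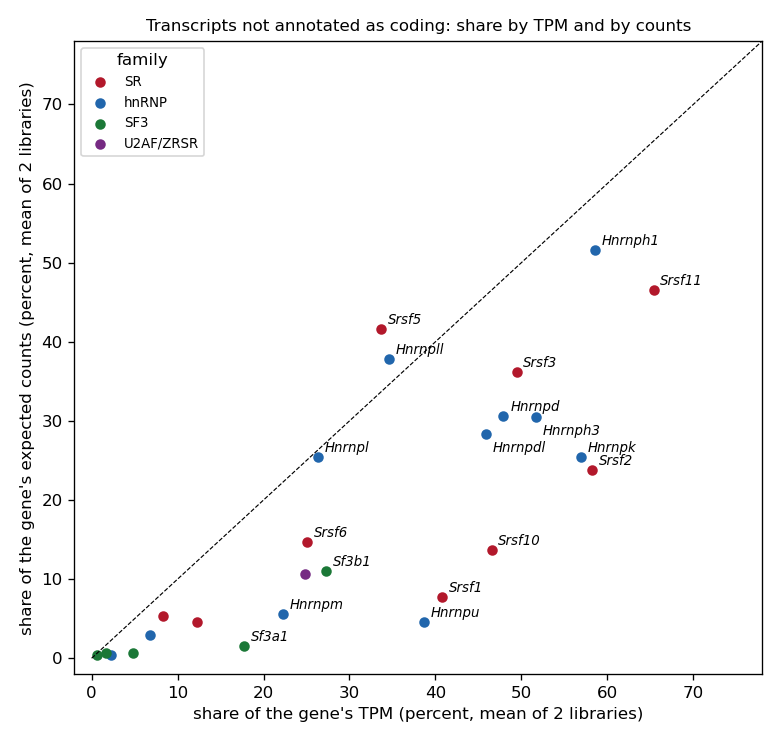
Share of each gene on transcripts not classed as coding, by TPM (x axis) and by expected counts (y axis), in percent as the mean of both libraries, with the line of equal shares. Most points lie under the line, Srsf2, Srsf10, Srsf1 and Hnrnpu far under it, and Srsf5 and Hnrnpll lie above it.

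Transcripts classed for nonsense-mediated decay were present for 15 of the 44 genes, 24 transcripts in all, each with at least 1 exon junction after its stop codon in the annotation. Of the 24, 7 reached a TPM of 1 in each library: Srsf3-201, Srsf6-201, Hnrnpdl-205 and Hnrnpd-208, given above, and 3 at low levels. Srsf4-204 had 1.89 and 1.02 TPM, Hnrnpk-203 had 1.87 and 4.18 TPM, and Sf3b1-208 had 1.75 and 4.21 TPM. The decay transcripts of Srsf2 were at 0 in both libraries. How many of all genes have such a transcript was not computed. Pooled over the 35 genes with 2 or more transcripts, this class held 3.03% and 2.56% of TPM, against 3.42% and 3.31% over all protein-coding genes past the same filters. Over the genes with a transcript not classed as coding it held 4.99% and 4.49% in 26 members, against 3.92% and 3.82% in the background. These counts are therefore no sign of a larger decay share in the families.

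The leading transcript was the same in both libraries for 26 of the 35 genes, against 70.9% of the background, a share near it. Of the 9 genes whose leader by TPM differed, 5 changed between a coding and a non-coding leader, namely Srsf1, Srsf10, Srsf11, Hnrnph1 and Hnrnph3. The share of such changes over all genes was not computed. By expected counts a coding transcript led Srsf1, Srsf10 and Srsf11 in both libraries. These were Srsf1-205 with 75.1% and 76.9%, Srsf10-205 with 37.0% and 50.6%, and Srsf11-202 with 43.8% and 52.9% of the counts. Srsf5 was led by Srsf5-202 in replicate 1 and by Srsf5-201 in replicate 2: Srsf5-202 had 109 TPM in replicate 1 and 30.3 TPM in replicate 2, and Srsf5-201 had 50.0 and 59.5 TPM. Hnrnph2 was led by Hnrnph2-203 in replicate 1, with 54.7% of its TPM, and by Hnrnph2-205 in replicate 2, with 53.6%. Hnrnph2-205 had 0.37 TPM in replicate 1 and 16.8 TPM in replicate 2, while Hnrnph2-202, which led in neither, had 21.1 and 0 TPM. Hnrnpr was led by Hnrnpr-202 in replicate 1 and by Hnrnpr-204 in replicate 2; Hnrnpr-204 had 15.4 TPM in replicate 1 and 27.3 TPM in replicate 2.

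Set side by side, the libraries gave levels within 2-fold of each other. On deposited TPM, though not after the rescaling below, the SR genes lay less close than the other families. Of the 43 whose mean TPM reached 1, none was past 2-fold in either direction on the log2(TPM + 1) scale. In the background 6.47% of genes were past 2-fold higher in replicate 1 and 1.7% past 2-fold higher in replicate 2. That background was not matched to the 43 genes for level. Within 1.5-fold were 81.4% of the 43 genes and 72.4% of the background, but 60.0% of the 10 SR genes, against 80.0% or more in each other family. For the 43 genes the log2 ratio of replicate 1 over replicate 2 had a median of 0.39, and 34 of them were higher in replicate 1. All protein-coding genes shifted the same way, with a median of 0.27 and 6605 of 9046 higher in replicate 1, and rescaling TPM to nuclear protein-coding genes brought that median to 0.00. After this rescaling the median of the 43 genes was 0.078, with 27 higher in replicate 1 and 16 higher in replicate 2, where 4562 of all 9046 were higher in replicate 1. The widest SR ratio on that scale was that of Srsf5 at 0.48, against -0.82 for Hnrnpl and -0.61 for Sf3a1. The lesser closeness of the SR genes therefore depends on the scale.

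Relative to that common shift the families differed in detail. In the SR family 8 of 10 genes were higher in replicate 1 by either scale, with a median of 0.44 on TPM and 0.13 after rescaling. On TPM 8 of 10 is near the share over all genes just given. With TMM-scaled counts 7 of 10 were higher in replicate 1, where 4383 of all 9046 genes were. In the SF3 family 7 of 9 were higher in replicate 1 on TPM, 4 of 9 after rescaling and 3 of 9 with TMM-scaled counts, so its direction depends on the scale. On TPM the highest ratios were those of Hnrnpu at 0.80, Srsf5 at 0.79 and Srsf3 at 0.78, which became 0.50, 0.48 and 0.47 after rescaling. The lowest was that of Hnrnpl at -0.51, and -0.82 after rescaling. With TMM-scaled counts the order differed: Sf3b4 was lowest at -0.71, Hnrnpl was at -0.49 and Srsf3 at 0.26. The summed markers of stem and multipotent cells and of megakaryocytes were higher in replicate 1 and those of granulocytes and monocytes higher in replicate 2, as given above; their part in these ratios was not tested. In bulk RNA, fewer cells of a type and less RNA per cell cannot be told apart.

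**Figure D4:**
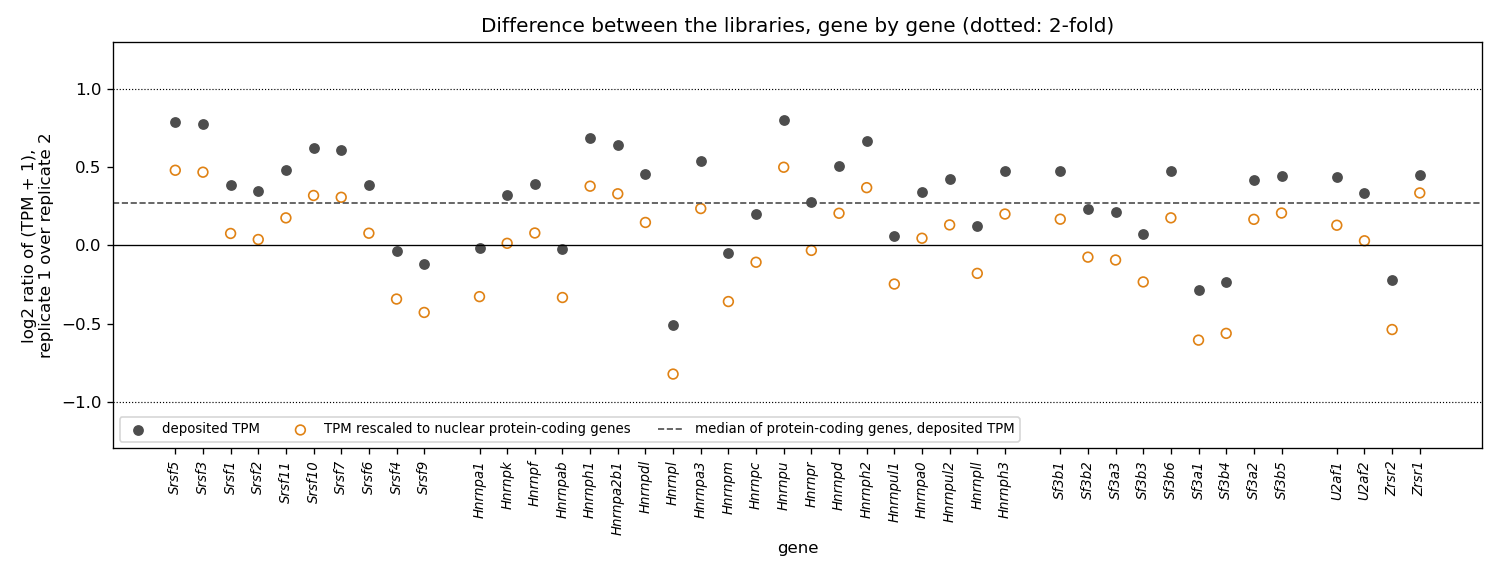
Log2 ratio of TPM + 1, replicate 1 over replicate 2, for the 43 genes whose mean TPM reached 1 (filled: deposited TPM; open: TPM rescaled to nuclear protein-coding genes); the dashed line is the median of 0.27 over all protein-coding genes and the dotted lines are 2-fold. All points lie between the dotted lines, from Hnrnpl at -0.51 to Hnrnpu at 0.80 on the deposited TPM.

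The deposited TPM intervals of paired genes lay apart in both libraries for all 12 pairs of family members that were compared, in the same direction in 11; the exception was Srsf3 with Srsf1. The level of these intervals is not stated, and they describe the estimate within 1 library.

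The machinery around these families was expressed nearly as completely. Of 158 other splicing genes found, 146 reached a TPM of 1 in both libraries, with a median of 22.5 TPM, against 65.9 TPM for the 44 genes. Between the libraries their median log2 ratio was 0.32, with 6 of 148 genes past 2-fold higher in replicate 1 and 2 past 2-fold higher in replicate 2. Among the SR-related genes 13 of 13 were detected, led by Tra2b, an SR-like activator of exon inclusion, at 222 and 154 TPM, and Acin1 at 69.5 and 62.6 TPM. Of the kinases that phosphorylate SR proteins and their partners 8 of 9 were detected; Clk1 had 133 and 86.9 TPM and Clk4 47.7 and 40.5 TPM, while the muscle kinase Srpk3 had 0 counts in both. In Clk1 73.2% and 75.8% of TPM was on transcripts not classed as coding. Of the importers listed, Tnpo3, which carries SR proteins into the nucleus, had 22.4 and 15.6 TPM, and Tnpo1 had 29.9 and 25.2 TPM.

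Among the core particles, the Sm core had a median of 58.4 TPM with 7 of 8 genes detected; Snrpd1 had 189 and 116 TPM and Snrpe had 135 and 73.7 TPM, while Snrpn, the imprinted relative of Snrpb that brain expresses, had 1 count in replicate 1 and 0 in replicate 2. In the U1 list, with 12 of 12 detected and a median of 35.4 TPM, Luc7l3 had 152 and 90.7 TPM and Snrnp70 had 122 and 85.4 TPM. All 16 partners of U2 at the branch site that were found were detected, with a median of 37.8 TPM. Dhx15 led them with 78.1 and 64.6 TPM, followed by Sf1, which holds the branch site before U2 arrives, with 67.4 and 64.9 TPM. The U4/U6 and U5 list (21 of 21, median 26.2 TPM) was led by Lsm3 at 121 and 62.1 TPM and Snrnp200 at 53.6 and 54.7 TPM. The list of PRP19 and catalytic factors (21 of 21, median 21.4 TPM) was led by Syf2 at 90.4 and 44.8 TPM and Bud31 at 79.1 and 55.0 TPM.

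Proteins of the minor spliceosome, the setting in which Zrsr2 acts, had a median of 16.2 TPM, with 6 of 8 detected. Zcrb1 had 36.8 and 29.2 TPM and Snrnp48 had 30.3 and 21.4 TPM. Snrnp35 had 2.97 TPM in replicate 1 and 0.69 TPM in replicate 2, and Zmat5 had 0.91 and 1.73 TPM, so each passed a TPM of 1 in a single library. U2af1l4, a relative of U2af1, had 24.0 and 17.5 TPM. The exon junction and decay list had 15 of 15 detected and a median of 11.0 TPM, led by Magoh at 80.1 and 92.4 TPM and Eif4a3 at 55.1 and 49.1 TPM. Of 32 other regulators of alternative splicing 24 were detected, with a median of 14.6 TPM; Sfpq had 253 and 209 TPM and Tardbp had 215 and 191 TPM. Of the 8 that were not, Nova1, Nova2, Rbfox3, Khdrbs2, Esrp1 and Esrp2 had 0 counts in both libraries, while Rbfox1 had 3 and 2 counts, and Rbfox2 had 0.06 and 0.06 TPM.

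**Figure D5:**
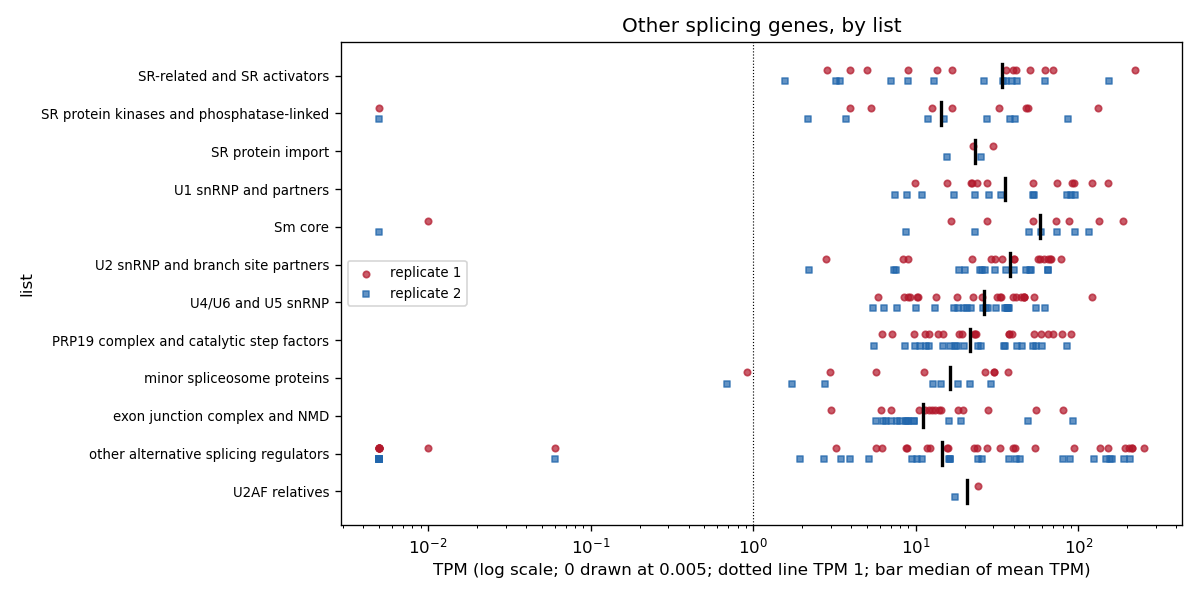
TPM (log scale, 0 drawn at 0.005) of the other splicing genes by list in replicate 1 (circles) and replicate 2 (squares), with the median of each list as a bar and a TPM of 1 as a dotted line. The Sm core has the highest median, 58.4 TPM, and most of the genes under the dotted line belong to the other regulators of alternative splicing.

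Exons of 16 of the 44 genes overlap exons of a gene on the opposite strand and those of 4 a gene on the same strand, in M21. Among them, Srsf2 overlaps Mettl23, which had 12.6 and 10.4 TPM, and Hnrnpu overlaps Cox20, which had 70.1 and 54.5 TPM. Whether strand was used in counting was not given in the sources used here, so reads of such overlaps may not be told apart.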

How the data were processed

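Total RNA, depleted of ribosomal RNA (100 ng a library), was sequenced from 2 libraries of 1 group. Per the file headers, the deposited tables give for each gene and transcript an expected count, a TPM, an FPKM and a posterior mean TPM, with bounds of a TPM interval (used as a signal value; level not stated) and an effective length. The authors used mm10 and GENCODE M4, per the deposited text files; the quantifier was not given in the sources used here. Gene and transcript IDs were matched without version to GENCODE M21, on the same assembly, which gave 42462 of 43346 gene rows a symbol; 1 of the 250 transcripts of the 44 genes had no match. Exon sequences were read from the GENCODE M21 transcripts; 1 further exon is not reported here.

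Ratios are log2(TPM + 1), replicate 1 over replicate 2, at a mean TPM of at least 1; a 2-fold ratio counts as past. The members and lists were chosen with earlier results of these data known. All 44 genes are named; of each list of other splicing genes the 2 with the highest mean TPM and those under a TPM of 1 in either library are, and Cd34, Mettl23, Cox20 and Commd1 were named after their values were seen. Transcript classes come from M21. For alternatives, expected counts, rounded to whole numbers, were scaled with edgeR 4.0.16 (TMM) and DESeq2 1.42.0 (size factors) in R 4.3.3, over 12175 genes at 10 counts or more in each library. Tables and plots were made with pandas 2.3.3, scipy 1.17.1, matplotlib 3.10.9 and numpy 2.4.6 in Python 3.11.15. The calculation of ratios was checked on simulated counts with known fold changes. The Poisson interval is at 95%, and a count of 0 was given a floor of 3 counts; both cover counting error only.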

Additional observations from a re-analysis of the deposited data

Results flagged for a closer look

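Signal was present in rows outside the 44 genes that carry a name of the families or belong to them. The processed pseudogene Hnrnpa1l2-ps had 51.3 expected counts in replicate 1 and 0 in replicate 2, and Hnrnpa1l2-ps2 had 9.84 and 2.62. The values in replicate 1 exceed the 3 counts taken as the limit of a count of 0. They are small beside the 79858 counts of Hnrnpa1 in replicate 1, and reads of such copies can be shared with their parent gene. A transcript of Hnrnpd that has no match in GENCODE M21, and so no class, had 61.8 counts in replicate 1 and 0 in replicate 2, or 2.59 and 0 TPM; it is counted as not coding in the shares above.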

How the results depend on the processing

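No paired analysis was possible because there is 1 group. The 43 detected genes and the 26 shared leading transcripts (29 by expected counts) stayed within 1.5 times under every alternative. By expected counts 80.0% of the background genes shared a leader, and 29 of the 35 genes is near that share. The median of 65.9 TPM was 164 as FPKM, 283 as TPM rescaled to nuclear protein-coding genes and 49.96 from coding transcripts only, an alternative chosen after seeing the data; leaving out a library gave 56.1 to 77.9. The median log2 ratio of 0.39 was 0.38 with posterior mean TPM, 0.078 rescaled, 0.052 with TMM, 0.054 with DESeq2 size factors and 0.34 from coding transcripts. None of the 43 genes was past 2-fold except under coding transcripts, where 1 was, Hnrnpl at -1.02. The median non-coding share of 22.3% of TPM was 5.30% of expected counts, and 20.0 to 21.3% with a library left out. Of 388 values of single genes, pairs and lists under these alternatives, 175 moved beyond the spread or counting error, most of them single ratios under rescaling, TMM or DESeq2. The ratio of Srsf3 over Srsf1 (0.12) changed sign, ranging from -0.073 to 0.32 with a library left out, and -0.12 from coding transcripts, which also moved Srsf2 over Srsf1, Srsf3 over Srsf7, Hnrnpk over Hnrnpl and Hnrnpc over Hnrnpd, as given above. The signs of 7 of 43 single ratios changed on rescaling and of 10 under TMM. The causes were not tested. Depth limits Srsf12, Snrpn and Rbfox1, which have few counts.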
